A study of Arabidopsis thaliana with 24 samples.

Results

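The genes described here are 10 members of the low-oxygen response of Arabidopsis thaliana, taken by locus from the 33296 locus rows of the table of raw counts. They are the transcription factor genes RAP2.12 (AT1G53910), HRE1 (AT1G72360), HRE2 (AT2G47520) and LBD41 (AT3G02550), and the plant cysteine oxidase genes PCO1 (AT5G15120) and PCO2 (AT5G39890). The metabolic genes are ADH1 (AT1G77120), PDC1 (AT4G33070) and SUS4 (AT3G43190), and PGB1 (AT2G16060) encodes a phytoglobin. Reads were sufficient for a test of 9 of the 10 genes, among 19437 genes tested, and PCO2 was the gene left out.

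Plant cells sense oxygen through group VII ethylene response factors, which include RAP2.12, RAP2.2, RAP2.3, HRE1 and HRE2. In air, plant cysteine oxidases oxidise a cysteine exposed at the start of these proteins, and the N-degron pathway then degrades them. When oxygen runs short the factors persist and activate a core set of genes, among them HRE1, HRE2, PCO1, PCO2, ADH1, PDC1, PGB1, LBD41 and SUS4. RAP2.12 itself is transcribed in air as well and is held in check mainly at the level of its protein.

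The cysteine codon on which this control rests stands directly after the start codon. The first 30 coding bases of the 3 group VII members of the set, and of the 2 other group VII genes whose transcripts passed a test below, are shown because they carry that codon. Sequences are from RefSeq for TAIR10.1, and the capitals mark the second codon, which was TGT or TGC in all 5. For HRE1 the start shown is that of 2 of its 3 annotated protein models.
RAP2.12 (chr1:20135242-20135271, plus strand): atgTGTggaggagctataatatccgatttc
RAP2.2 (chr3:4738971-4739000, minus strand): atgTGTggaggagctataatctccgatttc
RAP2.3 (chr3:5705784-5705813, plus strand): atgTGTggcggtgctattatttccgattat
HRE1 (chr1:27241904-27241933, plus strand): atgTGCggaggagctgtaatttccgattac
HRE2 (chr2:19503461-19503490, minus strand): atgTGTgggggagctatcatttctgatttc

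The series holds RNA-seq of primary root tips in 4 groups of 3 libraries each, and the labels call the libraries of a group biological replicates. The groups are brl3-2 with zeocin, brl3-2 with mock, WT with zeocin and WT with mock. All seedlings were 6 days old, of the Columbia (Col-0) background, and were moved to liquid medium for 2 h before extraction, with zeocin in the treated groups and with DMSO in the mock groups. The mutant is a single insertion line (SALK_006024C) in BRL3, which encodes a brassinosteroid receptor, and zeocin, a relative of bleomycin, makes breaks in DNA. No dose is given, because the labels state different ones.

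Library totals were 32668516 to 38276389 counts in 10 libraries, 73481046 in WT zeocin library 3 and 70212858 in WT mock library 3. BRL3 averaged 1.00 ± 0.064 CPM in brl3-2 zeocin root tips and 28.1 ± 5.75 CPM in WT zeocin root tips (SD, n = 3 each). SMR7, an inhibitor of cyclin-dependent kinases that responds to DNA damage, had a log2 change of 8.71 with zeocin in brl3-2 and 9.02 in WT. All 8 root tip markers had reads in every library, and their summed level was 95.8 to 109 CPM with zeocin and 94.8 to 113 CPM with mock. Summed photosynthesis markers were 17.2 to 42.6 CPM with zeocin and 14.2 to 231 CPM with mock, the top value belonging to brl3-2 mock library 2, and 1 or 2 of these 8 markers were at 0 in the other 11 libraries. Levels below are counts scaled to library size with TMM (CPM), and changes are log2 fold changes ± SE from edgeR's quasi-likelihood test with Benjamini-Hochberg adjustment over all genes tested, called at an adjusted p under 0.05. Of the 8 root tip markers, 2 were called lower with zeocin over both genotypes and 0 higher. In that comparison 3.04% of all genes tested were called lower. In bulk tissue, fewer cells that express a gene and less RNA per cell cannot be told apart.

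To compare levels between genes, CPM was divided by exon length. RAP2.12 stood highest, at a mean of 93.9 CPM per kb over the 12 libraries, followed by HRE1 at 43.1 CPM per kb. Neither overlapped its neighbours in any library. HRE2 at 9.78 and PDC1 at 9.03 CPM per kb came next and overlapped each other, and the lowest PDC1 library also lay below the highest LBD41 library. LBD41 at 2.86, PGB1 at 2.36 and ADH1 at 2.15 CPM per kb overlapped among themselves and lay above SUS4 at 0.949 CPM per kb in every library. PCO1 averaged 0.467 CPM per kb and PCO2 0.072 CPM per kb, and each overlapped the gene above it in the order. Several members were read at low depth: ADH1 had 70 to 267 counts per library, PGB1 48 to 189 counts and PCO1 7 to 92 counts.

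**Figure D1:**
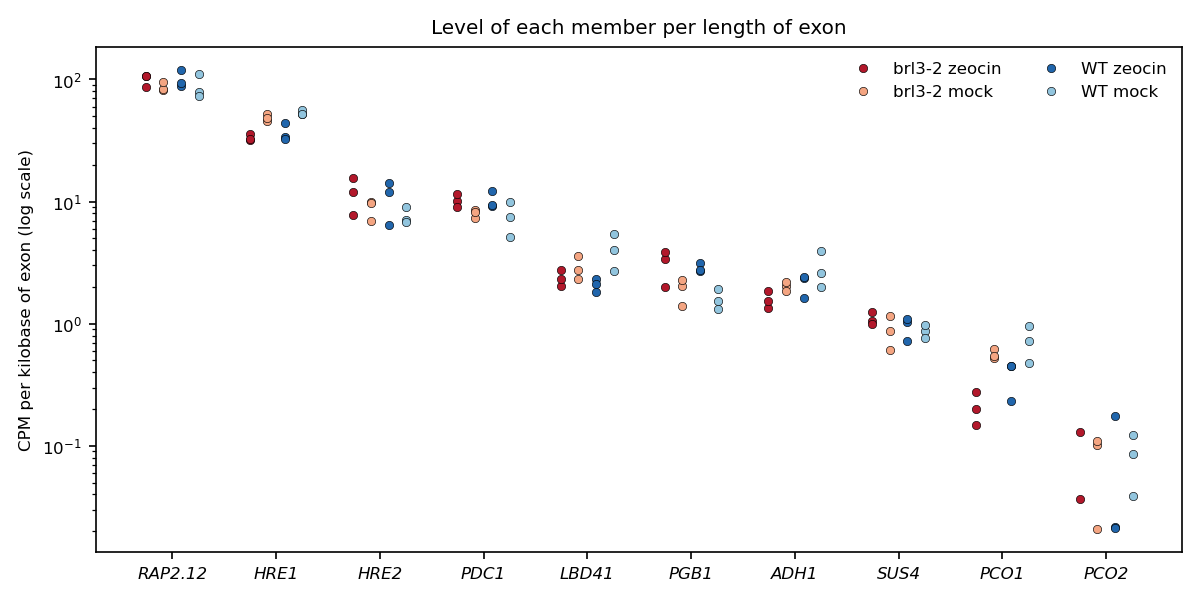
CPM per kilobase of exon for each member on a log axis, 1 point per library, with the 4 groups side by side. RAP2.12 and HRE1 lie above all other members, PCO1 and PCO2 lie at the bottom, and the brl3-2 zeocin library with 0 PCO2 counts is not drawn.

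Zeocin did not move the set in 1 direction. Over both genotypes, 4 of the 9 tested members were called, against 10.2% of all genes tested: HRE1, PCO1 and LBD41 fell and PGB1 rose. In the lower direction 3.04% of all genes were called, and in the higher direction 7.2%. The members were chosen with earlier results of these data known, so these shares are not an independent comparison. The median change of the 9 members was 0.20, beside -0.01 for all genes tested. HRE1 and PCO1 were the members whose 6 zeocin libraries all lay below their 6 mock libraries, a separation in either direction that 7.54% of all genes tested showed.

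**Figure D2:**
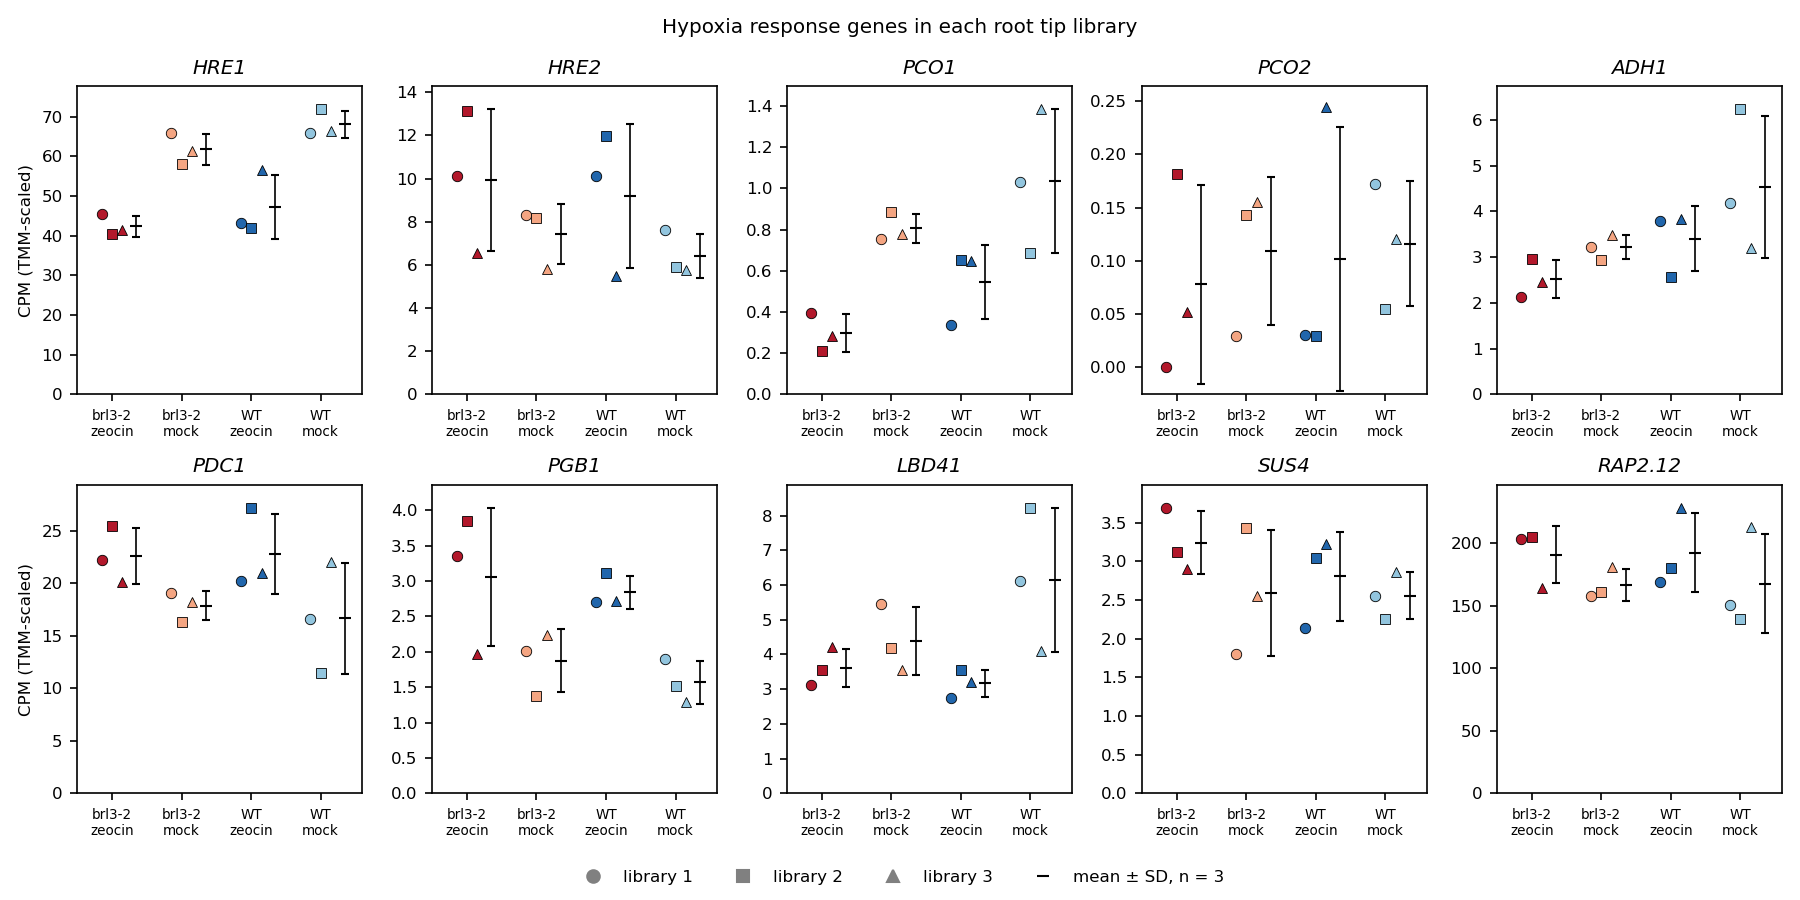
TMM-scaled CPM of each member in the 12 libraries, 1 panel per gene, with the mean and SD of each group of 3 to the right of its points. HRE1 and PCO1 are lower in all zeocin libraries than in all mock libraries, whereas the groups of HRE2, SUS4 and RAP2.12 overlap.

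Among the regulators, HRE1 showed the most even response. HRE1 had 45.4, 40.5 and 41.3 CPM in the brl3-2 zeocin libraries, against 65.9, 58.0 and 61.4 CPM in the brl3-2 mock libraries. In WT it had 43.2, 41.8 and 56.5 CPM with zeocin, against 65.8, 71.9 and 66.4 CPM with mock. WT zeocin library 3 was the highest of the zeocin libraries and still lay below every mock library. HRE1 fell by 0.54 ± 0.11 in brl3-2 (edgeR adjusted p = 0.00909) and by 0.53 ± 0.11 in WT (edgeR adjusted p = 0.0113). Over both genotypes it was 1.45-fold lower with zeocin (log2 -0.53 ± 0.07, edgeR adjusted p = 0.000474), a call kept in each of the 12 fits that left out 1 library. The call in brl3-2 was lost without brl3-2 zeocin library 2 (adjusted p = 0.0536). The call in WT was lost without WT zeocin library 1 or 2 (adjusted p up to 0.063) and in a fit to the WT groups alone (adjusted p = 0.0971).

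HRE1 lies on the plus strand of chromosome 1 (chr1:27241696-27242968, TAIR10.1), and 9.74% of its exon bases overlap exons of AT1G72370 (P40, a ribosomal protein gene) on the other strand. P40 stood at 694 to 936 CPM with zeocin and 673 to 867 CPM with mock, with a change of 0.01 ± 0.08 over both genotypes. The libraries were made with a strand-specific kit, but whether the counting used strand is not given in the sources used here.

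HRE2, a close relative of HRE1, was not called. It had 10.1, 13.2 and 6.57 CPM in brl3-2 zeocin root tips, against 8.31, 8.15 and 5.81 CPM in brl3-2 mock root tips. WT root tips had 10.1, 12.0 and 5.47 CPM with zeocin, against 7.60, 5.92 and 5.74 CPM with mock. Library 3 was the lowest of its group in all 4 groups, and zeocin and mock overlapped in both genotypes. The difference over both genotypes was 0.46 ± 0.21, with a 95% interval of 0.00 to 0.93 (edgeR adjusted p = 0.232).

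RAP2.12, the constitutive activator, was likewise not called. It had 203, 205 and 164 CPM in brl3-2 zeocin libraries, against 157, 161 and 181 CPM in brl3-2 mock libraries. In WT the levels were 169, 180 and 228 CPM with zeocin, against 150, 139 and 213 CPM with mock. The groups overlapped in both genotypes, and the difference over both was 0.20 ± 0.11 (95% interval -0.05 to 0.45, edgeR adjusted p = 0.367). Without WT mock library 3 this difference was called (adjusted p = 0.0447). Of the 50-base windows of RAP2.12 exons, 19.3% also occur in AT1G53887, a locus with 0.08 to 0.37 CPM, so reads from those windows could belong to either.

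LBD41 encodes a LOB-domain transcription factor. In brl3-2 it had 3.11, 3.55 and 4.20 CPM with zeocin, against 5.46, 4.18 and 3.54 CPM with mock, and the groups overlapped. In WT it had 2.76, 3.55 and 3.20 CPM with zeocin, against 6.11, 8.23 and 4.10 CPM with mock, and every zeocin library lay below every mock library. The difference was -0.28 ± 0.25 in brl3-2 (edgeR adjusted p = 0.741) and -0.95 ± 0.24 in WT (edgeR adjusted p = 0.0506). Over both genotypes LBD41 fell by 0.61 ± 0.17 (1.53-fold lower, edgeR adjusted p = 0.0469). That call was lost in 10 of the 12 fits without 1 library (adjusted p up to 0.129). Among these fits it held only without brl3-2 mock library 3 or without WT mock library 3. It was also lost with the replicate number as a block (edgeR adjusted p = 0.0641). The difference between the genotypes' responses was 0.67 ± 0.35 (95% interval -0.10 to 1.43) and was not called.

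Among the members, the oxidase genes PCO1 and PCO2 were read at the lowest depth. Other plant cysteine oxidase genes stood higher, with group means of 10.07 to 10.55 CPM for PCO3, 28.2 to 31.65 CPM for PCO4 and 46.59 to 50.24 CPM for PCO5. None of these others was called with zeocin. PCO1 had 0.397, 0.212 and 0.286 CPM in brl3-2 zeocin libraries (13, 7 and 11 counts), against 0.756, 0.887 and 0.777 CPM in brl3-2 mock libraries (26, 31 and 25 counts). WT root tips had 0.337, 0.651 and 0.648 CPM with zeocin (11, 22 and 45 counts), against 1.03, 0.688 and 1.39 CPM with mock (36, 25 and 92 counts). No zeocin library reached a mock library of either genotype, though WT zeocin library 2 came close to WT mock library 2. PCO1 fell over both genotypes by 1.17 ± 0.24 (2.26-fold lower, edgeR adjusted p = 0.00813), a call kept in all 12 fits without 1 library (adjusted p up to 0.0285). In brl3-2 it was 2.69-fold lower (log2 -1.43 ± 0.37, edgeR adjusted p = 0.0449), but leaving out any 1 of the 6 libraries lost this call (adjusted p up to 0.189). In WT the difference was -0.92 ± 0.32 (edgeR adjusted p = 0.182). PCO1 passed the filter on low counts on the levels of 3 of the groups, and its brl3-2 zeocin level alone would not have passed.

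PCO2, the second inducible oxidase gene, had 0, 6 and 2 counts in brl3-2 zeocin libraries, against 1, 5 and 5 counts in brl3-2 mock libraries. In WT the levels were 1, 1 and 17 counts with zeocin, against 6, 2 and 8 counts with mock. The library with 0 counts allows a level of up to 0.0916 CPM (3 counts, counting error only). Without the filter on low counts, the difference of PCO2 over both genotypes was -0.205 ± 0.683 and was not called. A small change of PCO2 was thus not detectable at this depth.

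PGB1 encodes a class 1 phytoglobin, a haemoglobin that scavenges nitric oxide, and was the member that rose. It had 3.36, 3.85 and 1.97 CPM in brl3-2 zeocin libraries, against 2.01, 1.37 and 2.24 CPM in brl3-2 mock libraries, and library 3 made these groups overlap. In WT it had 2.70, 3.11 and 2.72 CPM with zeocin, against 1.89, 1.51 and 1.296 CPM with mock, with no overlap. PGB1 was 1.72-fold higher over both genotypes (log2 0.79 ± 0.19, edgeR adjusted p = 0.0176). Without brl3-2 zeocin library 2 the adjusted p was 0.0525. The differences within a genotype, 0.71 ± 0.26 in brl3-2 (edgeR adjusted p = 0.195) and 0.87 ± 0.26 in WT (edgeR adjusted p = 0.102), were not called. Without brl3-2 zeocin library 3 the difference in brl3-2 was called (edgeR adjusted p = 0.0408), and DESeq2 called the one in WT (adjusted p = 0.035).

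The 3 members of fermentation and sucrose breakdown were not called in any comparison of zeocin with mock. PDC1, whose product decarboxylates pyruvate to acetaldehyde, had 22.2, 25.5 and 20.1 CPM in brl3-2 zeocin libraries, against 19.0, 16.3 and 18.3 CPM in brl3-2 mock libraries. WT root tips had 20.2, 27.2 and 20.9 CPM with zeocin, against 16.6, 11.4 and 22.0 CPM with mock. All zeocin libraries of brl3-2 lay above its mock libraries, while in WT mock library 3 lay above zeocin libraries 1 and 3. The difference over both genotypes was 0.39 ± 0.14 (95% interval 0.08 to 0.70, edgeR adjusted p = 0.118), and without WT mock library 3 it was called (adjusted p = 0.0112). Within the WT mock group, summed mature root markers were 423 CPM in library 1, 343 CPM in library 2 and 820 CPM in library 3, and none of the 6 markers was at 0 in any library. In that group PCO1, PDC1, SUS4 and RAP2.12 stood in the same order as this sum, and ADH1 and LBD41 in the reverse order. How many of all genes tested stood in either order was not counted. CASP1, 1 of the 6 markers, alone ranged over 153.5 to 512.2 CPM in that group. In WT zeocin libraries 1 to 3 the sum was 448, 482 and 647 CPM. SUS4 and RAP2.12 stood in that order, whereas PCO1 and PDC1 did not. ADH1 and LBD41 did not stand in the reverse order there. The sum was 544, 500 and 623 CPM in brl3-2 mock libraries 1 to 3. There ADH1 stood in the same order as the sum, and PCO1, PDC1, SUS4, RAP2.12 and LBD41 in neither order. For brl3-2 zeocin libraries 1 to 3 the sum was 633, 576 and 404 CPM. There SUS4 stood in the same order, LBD41 in the reverse order, and PCO1, PDC1, RAP2.12 and ADH1 in neither. Over all libraries the summed level was 404 to 647 CPM with zeocin and 343 to 820 CPM with mock, and its part in these results was not tested.

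ADH1 reduces the acetaldehyde that pyruvate decarboxylase makes to ethanol. It had 2.14, 2.97 and 2.47 CPM in brl3-2 zeocin libraries, against 3.23, 2.95 and 3.48 CPM in brl3-2 mock libraries. In WT the levels were 3.80, 2.58 and 3.84 CPM with zeocin, against 4.19, 6.25 and 3.20 CPM with mock. Of its exon bases, 3.82% overlap exons of AT1G77122 on the other strand. The groups overlapped in both genotypes, and the difference over both was -0.38 ± 0.17 (95% interval -0.76 to 0.01, edgeR adjusted p = 0.24). ADH1 and PDC1, consecutive steps of 1 pathway, thus had estimates of opposite sign, neither of which passed the test. SUS4, a sucrose synthase gene, ranged over 2.91 to 3.69 CPM in brl3-2 zeocin, 1.80 to 3.43 CPM in brl3-2 mock, 2.14 to 3.22 CPM in WT zeocin and 2.26 to 2.86 CPM in WT mock. Its difference over both genotypes was 0.23 ± 0.16 (95% interval -0.14 to 0.59, edgeR adjusted p = 0.501).

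Counted within each genotype, 2 of the 9 tested members were called in brl3-2, HRE1 and PCO1, where 5.38% of all genes tested were called. In WT 1 of the 9 was called, HRE1, where 4.98% of all genes were called. Libraries of the 2 treatments did not overlap for 3 members in brl3-2 (HRE1 and PCO1 lower, PDC1 higher), against 23.6% of all genes tested. In WT this held for 4 members (HRE1, PCO1 and LBD41 lower, PGB1 higher), against 16.2% of all genes. The count in WT depended on the method, being 0 in a fit to the WT groups alone and 3 with DESeq2, which also called LBD41 lower and PGB1 higher.

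**Figure D3:**
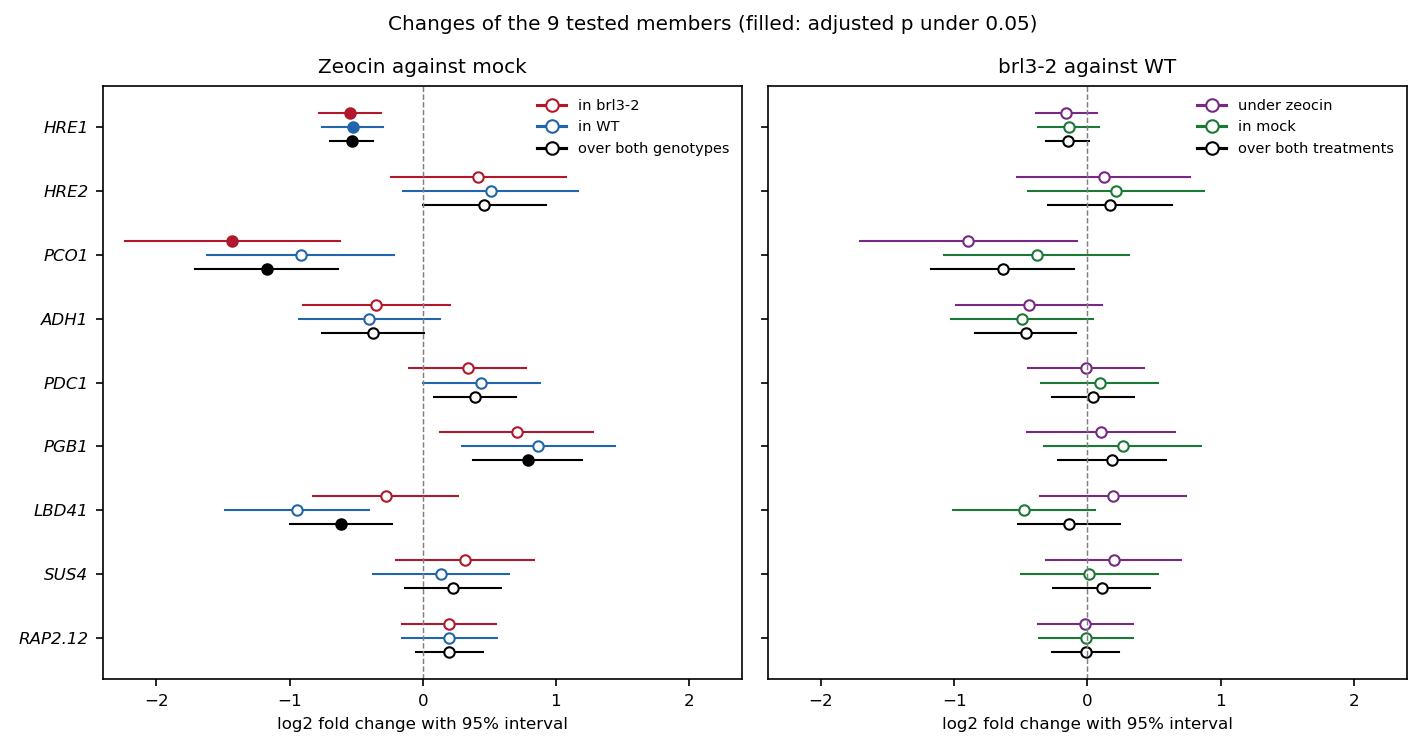
Log2 fold changes of the 9 tested members with 95% intervals, zeocin against mock at left and brl3-2 against WT at right, with filled points where the adjusted p was under 0.05. The filled points are those of HRE1 in each comparison of zeocin with mock, of PCO1 in brl3-2 and over both genotypes, and of LBD41 and PGB1 over both genotypes, and all points at right are open.

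Loss of BRL3 was compared at each treatment, since the mutant was the second factor of the design. None of the 9 members was called by edgeR in brl3-2 against WT under zeocin, where 8 genes (0.0412%) were called in all, in mock, where 5 genes (0.0257%) were called, or over both treatments, where 11 genes (0.0566%) were called. DESeq2 called 0 members in each of these comparisons as well. At an unadjusted p under 0.05 there were 1, 0 and 2 members under zeocin, in mock and over both treatments, where 412, 771 and 1018 of all genes tested had such a p. PCO1 was the member under zeocin, with 0.298 ± 0.093 CPM in brl3-2 and 0.545 ± 0.180 CPM in WT (SD, n = 3 each) and a difference of -0.89 ± 0.37 (95% interval -1.71 to -0.08, edgeR adjusted p = 1).

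Over both treatments the difference of PCO1 was -0.64 ± 0.24 (95% interval -1.17 to -0.10, edgeR adjusted p = 0.901) and that of ADH1 was -0.46 ± 0.17 (95% interval -0.84 to -0.08, edgeR adjusted p = 0.893). The narrowest intervals belonged to HRE1, at -0.15 ± 0.07 (95% interval -0.31 to 0.01), and RAP2.12, at -0.01 ± 0.11 (95% interval -0.26 to 0.24). The other 5 members lay between -0.14 (LBD41) and 0.19 (PGB1). Of the difference between the 2 zeocin responses, edgeR and DESeq2 called 0 of 19437 genes (0%), and 194 genes but none of the members had an unadjusted edgeR p under 0.05. For HRE1 this difference was -0.02 ± 0.15 (95% interval -0.34 to 0.31) and for PCO1 -0.51 ± 0.49 (95% interval -1.58 to 0.56).

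The 300 bases before the annotated gene start are shown for HRE1 and PCO1, which fell, and PGB1, which rose. They are shown because, among these genes, only PCO1 holds a low-oxygen motif of those searched for. Sequences are from RefSeq for TAIR10.1, read in the direction of transcription. Capitals mark the 2 motifs of the anaerobic response element known from alcohol dehydrogenase promoters, the GT motif AAACCA and the GC motif GCCCC, on either strand.
HRE1 (chr1:27241396-27241695, plus strand): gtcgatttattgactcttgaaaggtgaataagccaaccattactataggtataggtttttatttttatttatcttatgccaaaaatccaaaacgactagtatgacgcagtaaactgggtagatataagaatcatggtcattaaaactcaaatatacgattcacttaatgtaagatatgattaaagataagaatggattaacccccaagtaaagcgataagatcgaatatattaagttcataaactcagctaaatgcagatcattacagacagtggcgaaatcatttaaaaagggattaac
PCO1 (chr5:4898341-4898640, plus strand): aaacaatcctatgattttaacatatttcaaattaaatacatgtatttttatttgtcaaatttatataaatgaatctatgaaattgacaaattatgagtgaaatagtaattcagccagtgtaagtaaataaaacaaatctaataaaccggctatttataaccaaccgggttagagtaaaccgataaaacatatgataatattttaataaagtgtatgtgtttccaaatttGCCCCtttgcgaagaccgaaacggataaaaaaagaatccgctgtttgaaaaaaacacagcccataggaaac
PGB1 (chr2:6983778-6984077, minus strand): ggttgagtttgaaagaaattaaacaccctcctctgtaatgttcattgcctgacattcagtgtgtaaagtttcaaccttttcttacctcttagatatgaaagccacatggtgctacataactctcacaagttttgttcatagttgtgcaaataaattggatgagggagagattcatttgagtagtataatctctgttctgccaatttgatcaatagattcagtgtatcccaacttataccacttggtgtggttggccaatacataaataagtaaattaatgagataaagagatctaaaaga

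PCO1 held 1 GC motif, 71 to 67 bases before its start. HRE1 and PGB1 held neither motif, and no further motif of the low-oxygen response was searched for. The window was searched in 9 of the members. The GC motif was found in 2 of these 9, PCO1 and PCO2, and in 5.26% of 27443 promoters of the same length. The GT motif was also found in 2 of the 9, with 3 copies in PDC1 and 1 in ADH1, and in 31.8% of all promoters.

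Both strands were also searched for the GCC box GCCGCC, a site of ethylene response factors, for the G-box CACGTG, and for the motif of SOG1 (CTT and AAG with 7 bases between), the transcription factor that leads the DNA damage response in plants. The GCC box was in none of the 9 members (2.26% of all promoters). The G-box was in ADH1 (7.09% of all promoters), and the SOG1 motif in ADH1 and PDC1 (11.4%). No match overlapped one of another motif. HRE1, HRE2, PGB1, SUS4 and RAP2.12 held none of the 5 motifs in this window.

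**Figure D4:**
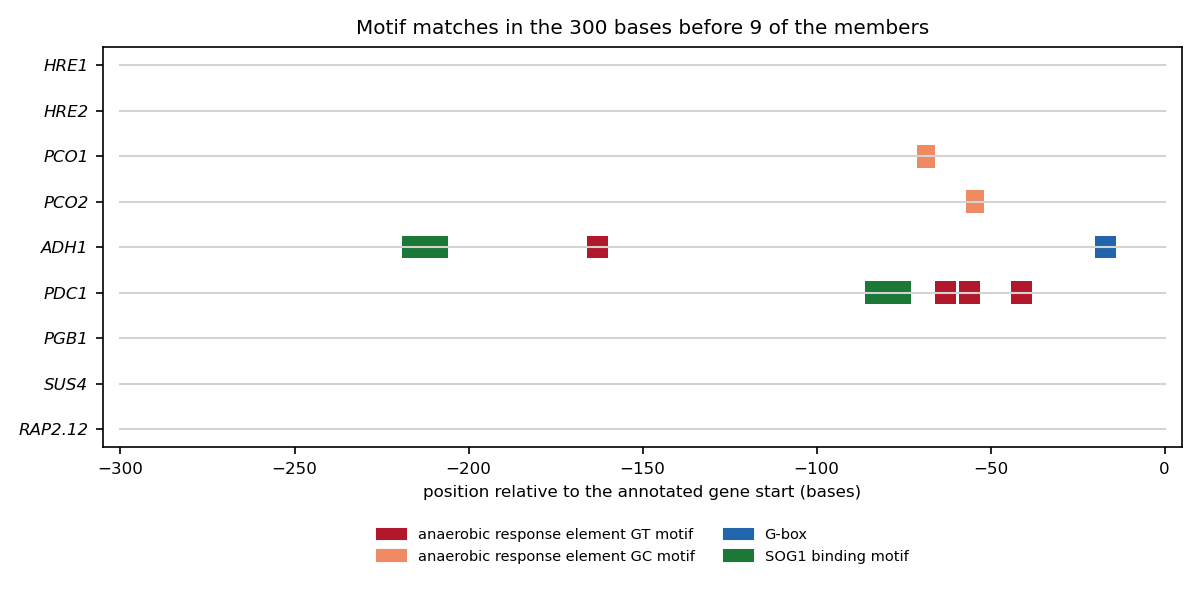
Matches to 4 of the 5 motifs in the 300 bases before the annotated start of 9 members, with the distance from the start on the horizontal axis. PCO1 and PCO2 carry the GC motif within 71 bases of the start, ADH1 and PDC1 carry the GT motif and the SOG1 motif, and 5 members carry no match.

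The wider low-oxygen response was examined in 3 lists of other genes. The lists, like the members, were chosen with earlier results of these data known. Their shares called are thus not an independent comparison with all genes. Of 12 tested genes of oxygen sensing and the N-degron pathway (13 listed), 1 rose and 1 fell with zeocin over both genotypes, and both encode group VII factors. These 2 were 16.7% of the list, against 10.2% of all genes tested. RAP2.3 had 12.4, 11.6 and 10.4 CPM in brl3-2 zeocin libraries, against 6.89, 8.27 and 6.90 CPM in brl3-2 mock libraries. In WT it had 11.5, 10.3 and 9.83 CPM with zeocin, against 7.97, 8.25 and 5.62 CPM with mock. All 6 zeocin libraries lay above all 6 mock libraries, and RAP2.3 rose by 0.59 ± 0.10 (1.51-fold higher, edgeR adjusted p = 0.00272). RAP2.2 averaged 138 ± 13.0 CPM in brl3-2 zeocin and 176 ± 13.1 CPM in brl3-2 mock, and 138 ± 23.2 CPM in WT zeocin and 181 ± 29.7 CPM in WT mock (SD, n = 3 each). It fell by 0.37 ± 0.10 over both genotypes (edgeR adjusted p = 0.0318), a call lost in 7 of the 12 fits without 1 library (adjusted p up to 0.0768). Within a genotype RAP2.2 was not called (edgeR adjusted p = 0.228 in brl3-2 and 0.189 in WT). RAP2.3 was called in brl3-2 (edgeR adjusted p = 0.0253), a call lost in 4 of 6 fits without 1 library, and not in WT (edgeR adjusted p = 0.0645). Over both genotypes the group VII transcripts thus differed in direction under zeocin. HRE1 fell, RAP2.3 rose, RAP2.2 fell with a call that most such fits lost, and HRE2 and RAP2.12 were not called.

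The list of fermentation, sucrose breakdown and globins also holds the alternative oxidase gene AOX1A. Of its 15 tested genes (16 listed), 2 rose and none fell, which is 13.3% of the list against 10.2% of all genes. ALAAT1, an alanine aminotransferase gene whose product makes alanine from pyruvate, had 310, 318 and 275 CPM in brl3-2 zeocin libraries, against 158, 158 and 175 CPM in brl3-2 mock libraries. WT root tips had 281, 292 and 277 CPM with zeocin, against 149, 149 and 176 CPM with mock. The treatments were far apart in both genotypes, and ALAAT1 rose by 0.88 ± 0.08 in brl3-2 (edgeR adjusted p = 3.19e-05) and by 0.84 ± 0.08 in WT (edgeR adjusted p = 4.86e-05). AOX1A, which encodes the mitochondrial alternative oxidase, averaged 195 ± 43.9 CPM in brl3-2 zeocin and 138 ± 11.0 CPM in brl3-2 mock, and 176 ± 33.4 CPM in WT zeocin and 113 ± 23.5 CPM in WT mock (SD, n = 3 each). It rose by 0.57 ± 0.14 over both genotypes (edgeR adjusted p = 0.0193), a call lost in 4 of the 12 fits without 1 library (adjusted p up to 0.056). The median of the 15 genes was 0.02, beside -0.01 for all genes tested.

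Of 30 tested genes in the list of other genes known to rise in low oxygen (39 listed), 6 fell and 2 rose over both genotypes, with a median of -0.18 beside -0.01 for all genes tested. These 8 were 26.7% of the list, where 10.2% of all genes were called, 3.04% lower and 7.2% higher. Without brl3-2 zeocin library 3 the median of the list was -0.05, with 6 genes that fell and 2 that rose. AT1G33055, of unknown function and with 9.66% of its exon bases in exons of another gene on the same strand, had 3.18, 4.15 and 3.27 CPM in brl3-2 zeocin libraries, against 6.16, 4.92 and 5.85 CPM in brl3-2 mock libraries. In WT the levels were 3.22, 3.58 and 4.63 CPM with zeocin, against 7.74, 6.27 and 9.80 CPM with mock. Every zeocin library lay below every mock library, and the fall was 0.86 ± 0.14 (edgeR adjusted p = 0.00129). AT2G15880, of the leucine-rich repeat family, fell by 0.77 ± 0.11 (edgeR adjusted p = 0.000411), AT4G39675 by 0.68 ± 0.14 (edgeR adjusted p = 0.00889) and AT4G27450 by 0.46 ± 0.08 (edgeR adjusted p = 0.00182). AT1G74940 and AT5G66985, named after their values were seen, were the other 2 that fell.

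The 2 genes that rose in that list were AT4G17670, of the DUF581 family, at 1.25 ± 0.17 (edgeR adjusted p = 0.000391), and CML38, a calmodulin-like gene of stress granules in hypoxia, at 2.09 ± 0.35 (edgeR adjusted p = 0.00179). CML38 had 13.8, 13.4 and 12.9 CPM in brl3-2 zeocin libraries, against 1.54, 2.15 and 3.17 CPM in brl3-2 mock libraries. In WT it had 14.3, 13.7 and 22.4 CPM with zeocin, against 1.58, 10.3 and 4.52 CPM with mock. WT mock library 2 came closest to the zeocin libraries, and the treatments did not overlap. In brl3-2 against WT no gene of the 3 lists was called under zeocin, in mock or over both treatments.

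**Figure D5:**
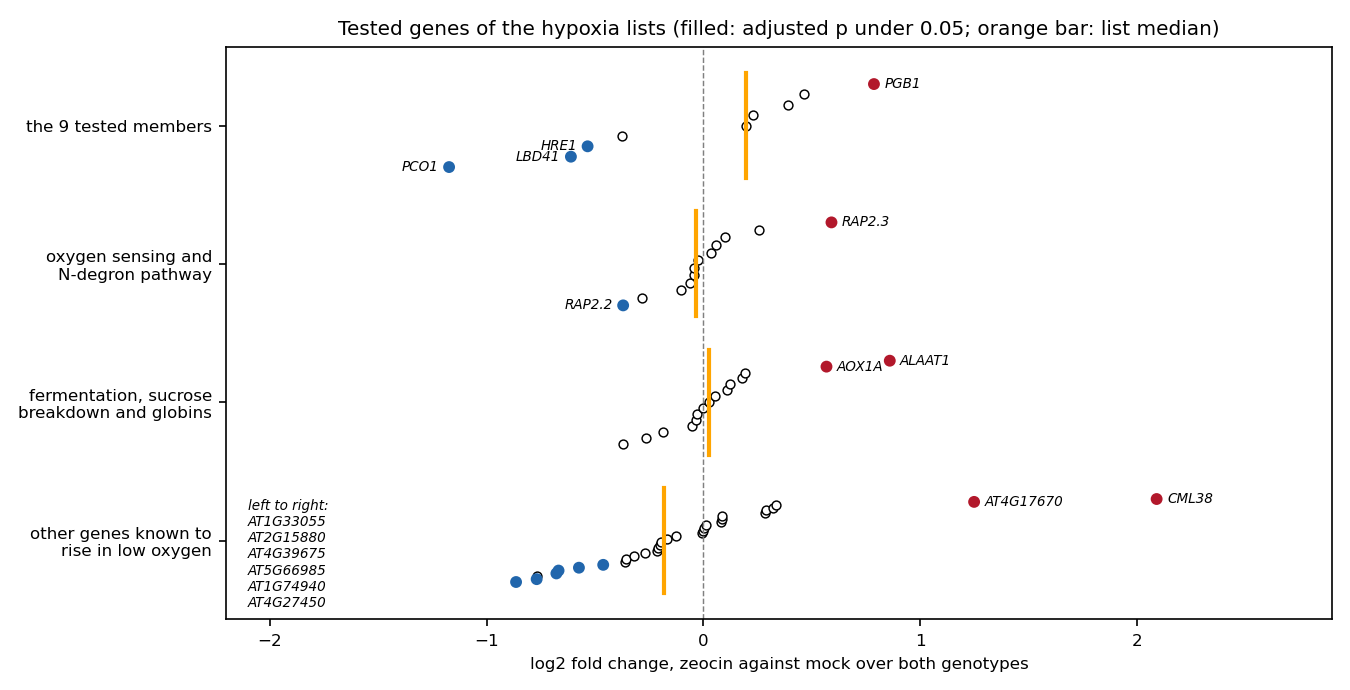
Log2 fold changes with zeocin over both genotypes for the tested members and the tested genes of 3 further lists, 1 point per gene, filled where the adjusted p was under 0.05, with each list's median as an orange bar. Called genes lie on both sides of 0 in every list but that of fermentation, sucrose breakdown and globins. In that list, which also holds the alternative oxidase gene, ALAAT1 and AOX1A lie to the right.

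For PCO1, LBD41 and PGB1, the members whose log2 CPM spanned the widest range, the tested genes of most similar profile were found by the root mean square difference of centred log2 CPM over the 12 libraries. Closest to PCO1 were MAKR4 (0.299), AT4G21870 (0.320) and AT5G41590 (0.329), where the SD of PCO1 itself was 0.731. Closest to LBD41 were SRS5 (0.175), AT2G03470 (0.206) and AT2G30505 (0.218), with an SD of LBD41 of 0.448. Closest to PGB1 were GORK (0.206), which encodes an outward potassium channel, AT1G79640 (0.219) and AT1G16270 (0.230), with an SD of PGB1 of 0.50. No other member was among the genes named, since members were left out of the search.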

How the data were processed

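RNA of root tips was sequenced in 12 libraries, 3 in each of 4 groups of genotype and treatment, and each library was run on the sequencer 2 times, which makes 24 described samples. The authors deposited 1 table of raw counts per gene and library. The submitters' processing notes name HISAT2 2.1 and featureCounts 1.6.2, with Trimmomatic 0.38, FastQC 0.11.2 and edgeR 3.34.1 beside them, and the build TAIR10. Settings, use of strand and the joining of runs are not stated there (not given in the sources used here). The table's 1 row with no gene name, at most 0.00393% of a library's counts, was left out.

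The analysis used edgeR 4.0.16 under R 4.3.3. The function filterByExpr (minimum count 10, minimum total 15) kept 19437 genes. Libraries were scaled by TMM, and a quasi-likelihood fit with 1 coefficient per group to all 12 libraries gave 7 two-sided contrasts. Each SE is the log2 change divided by the square root of F. The same steps were tested on simulated data. Alternatives were RLE scaling, no filter, only the groups compared, the replicate number as a block, DESeq2 1.42.0 and libraries left out. The log2 CPM profiles used a prior count of 2. With 3 libraries per group precision is limited, most of all for genes with few counts.

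The members and the lists were chosen with earlier results of these data known. All 10 members are named. Of each other list, up to 6 genes called in a contrast are named, by smallest adjusted p. The 3 genes nearest in profile to the 3 members of widest range are named where they reach a mean of 1 CPM. Coordinates, products and sequences are from the TAIR10.1 RefSeq annotation. The promoter of 1 member is not reported here.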

Additional observations from a re-analysis of the deposited data

How the results depend on the processing

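The falls of HRE1 and PCO1 over both genotypes passed the test under every alternative run. Without 1 library at a time, members called numbered 0 to 3 in WT, 0 to 2 in brl3-2 and 2 to 6 over both genotypes, and none in any comparison of brl3-2 with WT. The 1 member called in WT became 2 with RLE scaling, 2 without the filter on low counts, 0 in a fit to the WT groups alone, 3 with DESeq2 and 3 without both WT libraries numbered 3. These added LBD41 (adjusted p = 0.0486 with RLE, 0.0437 without the filter, 0.0052 with DESeq2 and 0.0164 without both WT libraries numbered 3), and PGB1 (0.035, DESeq2) or PDC1 (0.0431, without both WT libraries). The 2 members called in brl3-2 became 1 without the filter (PCO1 adjusted p = 0.0544). The causes of these changes were not tested, except that fewer libraries enter some fits. PCO2 could be fitted only without the filter and was not called (-0.20 ± 0.68 over both genotypes).

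Whether the replicate numbers pair the libraries was not settled. The 18 same-numbered pairs had correlations of -0.316 to 0.589, and pairs of unlike number had -0.462 to 0.362. For libraries numbered 3, WT mock had 0.589 with WT zeocin and 0.399 with brl3-2 mock, but -0.316 with brl3-2 zeocin. Of 12 libraries, 7 correlated best with their own number. With the replicate block, members called in brl3-2 numbered 1 (PCO1 adjusted p = 0.0573), LBD41 over both genotypes was not called (adjusted p = 0.0641), and brl3-2 against WT over both treatments had 17 genes called in place of 11.

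Over all genes, a fit to the groups compared called 566 genes with zeocin in WT in place of 967, and in brl3-2 against WT 5 in place of 8 under zeocin and 2 in place of 5 in mock. DESeq2 called 12 in mock and 28 over both treatments. Under zeocin 4 were called without both WT libraries numbered 3, and 4 to 5 without 1 library at a time.

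Reversed signs were all of uncalled differences. In brl3-2 against WT, with the replicate block, they were SUS4 in mock (-0.001) and RAP2.12 in mock (0.002), under zeocin (0.009) and over both treatments (0.006). Without both WT libraries numbered 3 they were RAP2.12 in mock (0.193), under zeocin (0.123) and over both treatments (0.158), HRE2 under zeocin (-0.162) and over both treatments (-0.015), and the difference of responses of HRE1 (0.156). The difference of responses of RAP2.12 was 0.001 with RLE scaling and with DESeq2, 0.002 without the filter and 0.007 with the block. Leaving out 1 library gave, in brl3-2 against WT in mock, PDC1 -0.117 to 0.351, SUS4 -0.249 to 0.217 and RAP2.12 -0.127 to 0.200. Under zeocin it gave HRE2 -0.155 to 0.365, PDC1 -0.104 to 0.135, PGB1 -0.095 to 0.344 and RAP2.12 -0.099 to 0.128. Over both treatments it gave PDC1 -0.063 to 0.171, SUS4 -0.023 to 0.207 and RAP2.12 -0.070 to 0.093. For the difference of responses it gave HRE1 -0.096 to 0.136, HRE2 -0.371 to 0.150, ADH1 -0.248 to 0.258, PDC1 -0.360 to 0.107, PGB1 -0.361 to 0.078, SUS4 -0.022 to 0.451 and RAP2.12 -0.213 to 0.139.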

Other observations

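The 30 tested genes of the list of other genes known to rise in low oxygen were below 0 in brl3-2 against WT in 23 of 30 cases under zeocin (median -0.13), 22 of 30 in mock (median -0.17) and 26 of 30 over both treatments (median -0.14), where the median of all genes tested lay at 0.00. None of the 30 was called. Without both WT libraries numbered 3, the 2 deepest, 18 of 30 were below 0 under zeocin (median -0.05), 23 of 30 in mock (median -0.14) and 22 of 30 over both treatments (median -0.07). Without WT zeocin library 3 alone, 17 of 30 were below 0 under zeocin (median -0.05). The comparisons over both treatments and within a treatment share their libraries.

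Within groups, libraries did not rank the members alike. WT mock library 3 was the highest of its group for 4 of the 9 tested members (PCO1, PDC1, SUS4 and RAP2.12) and the lowest for 4 others (HRE2, ADH1, PGB1 and LBD41). In brl3-2 zeocin, library 3 was the lowest for 5 members and library 2 the highest for 5.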
